A study of Mus musculus with 4 samples.

Results

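Liver makes glucose by gluconeogenesis and stores it as glycogen, and 10 genes of these pathways were followed in mouse liver tumours and normal liver. They were taken by symbol from the count tables: Pck1, G6pc, Fbp1, Pcx and Slc37a4 of gluconeogenesis, the coactivator gene Ppargc1a, the glycogen synthase genes Gys1 and Gys2 and the glycogen phosphorylase genes Pygl and Pygb. All 10 of the 10 symbols were among the 25793 listed in each of the 4 tables, and all passed the filter on low counts. Tumours 1 and 2 were labelled as coming from mice of genotype beta-2SP+/- ; SMAD3+/-, which carry 1 disrupted copy of the gene for the SMAD3 adaptor beta-2 spectrin and 1 of Smad3. The remaining libraries were labelled normal liver, 1 of that double heterozygous genotype and 1 of wild type. The labels give no age, sex, strain or number of animals per library, and nothing in them says that the tumours came from separate mice. The short sample descriptions depart from these labels, naming a T cell for each tumour and a hepatocyte for each normal liver.

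The 4 libraries held between 11049931 and 18448621 gene counts. The normal tables are not independent: counts were equal in both for 56.8% of the 2632 genes whose mean lay at 1 to 5, against 13.1% of 2299 such genes in the tumours. They were therefore averaged into 1 normal library for the test, and both are shown as values. Levels are CPM (counts relative to library size) after scaling by the trimmed mean of M-values (TMM), on which 3 counts are worth 0.139 to 0.308 CPM. The hepatocyte was checked by 10 marker genes, whose summed level was 171906 and 156693 CPM in the normal tables labelled double heterozygous and wild type and 10.9 and 49.9 CPM in tumours 1 and 2. All 10 of these markers fell in the tumours, beside 5.19% of all genes tested, and their sum there was near absent beside that of normal liver. Ass1 and Serpina1a have sequence shared with other genes (43.1% and 65.2% of their 31-base words). They also differed between the normal tables, at 101 and 1991 CPM for Ass1 and 1391 and 2740 CPM for Serpina1a. In such bulk samples fewer hepatocytes and less RNA per hepatocyte cannot be told apart. Bile duct markers were at 2133 and 1822 CPM in tumours 1 and 2 against 38.9 and 33.5 CPM, of which Spp1 alone gave 1316 and 1366 CPM. Of the 6, 3 were higher (Krt7, Krt19 and Spp1), beside 2.23% of all genes tested. Epcam and Cftr lay above normal liver in tumour 1 and below it in tumour 2, at 0.185 and 0.324 CPM in the latter. Fibroblast markers were at 3.02 and 493 CPM against 76.4 and 66.3 CPM, but did not move together. Col1a1 (174 CPM), Col1a2 (242 CPM) and Pdgfrb (70.6 CPM) made up nearly all of the sum in tumour 2. Dcn was lower in both tumours, at 1.10 and 7.12 CPM against 59.5 and 50.7 CPM, and Lum had 0 counts in both. Endothelial markers were at 0.465 and 1.11 CPM against 206 and 191 CPM. Macrophage markers summed to 16.7 and 4.12 CPM against 134 and 120 CPM, but did not move together. Of 6 tested, 2 were lower (Clec4f and Cd5l), beside 5.19% of all genes tested. For 4 of the 6 both tumours lay below both normal tables. Marco was above normal liver in tumour 1 (7.03 CPM against 1.23 and 1.51 CPM), and Cd68 in tumour 2 (3.01 CPM against 2.16 and 1.93 CPM). Of 10 T cell markers, 7 had 0 counts in both tumours, Cd3e, Cd3d and Cd3g among them. Most were scarce in normal liver too, and only 2 of the 10 were tested. Cd3d had 1 count in each normal table, Cd3g 2 in each and Cd3e 23 and 35. Lck had 9 and 11 counts in the tumours against 5 and 8. The part of these cell types in the results below was not tested.

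In gluconeogenesis, pyruvate carboxylase (Pcx) makes oxaloacetate from pyruvate, phosphoenolpyruvate carboxykinase (Pck1 in the cytosol) turns it into phosphoenolpyruvate, and fructose bisphosphatase (Fbp1) and glucose-6-phosphatase (G6pc) bypass the irreversible steps of glycolysis. The transporter Slc37a4 carries glucose 6-phosphate into the endoplasmic reticulum, where G6pc releases free glucose, and the coactivator PGC-1alpha (Ppargc1a) raises transcription of the pathway in fasting. Glycogen is built by a synthase, Gys2 in liver and Gys1 in muscle and most other tissues. It is broken down by a phosphorylase, Pygl in liver, Pygm in muscle and Pygb in brain and many other tissues.

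The question put to the data was how these genes differed between tumours and normal liver. Pck1, G6pc, Fbp1 and Gys2, all abundant in normal liver, had 0 to 10 counts in each tumour, while Pygb had 1148 and 1722. Of the 10 genes, 6 fell (Pck1, G6pc, Fbp1, Slc37a4, Gys2 and Pygl) and 1, Pygb, rose (edgeR quasi-likelihood test, Benjamini-Hochberg adjusted p under 0.05 over 14468 genes). Of all genes tested, 5.19% fell and 2.23% rose. Without scaling beyond library size, the split over all genes turned from 751 lower and 322 higher to 472 lower and 635 higher. The median log2 fold change was -7.39 over the 10 genes and 0.19 over all genes. For 8 of the 10 genes both tumours lay below both normal tables, as they did for 36.7% of all genes, and for Gys1 and Pygb both lay above, as for 41.7%. Groups that do not overlap are thus common in these libraries.

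**Figure D1:**
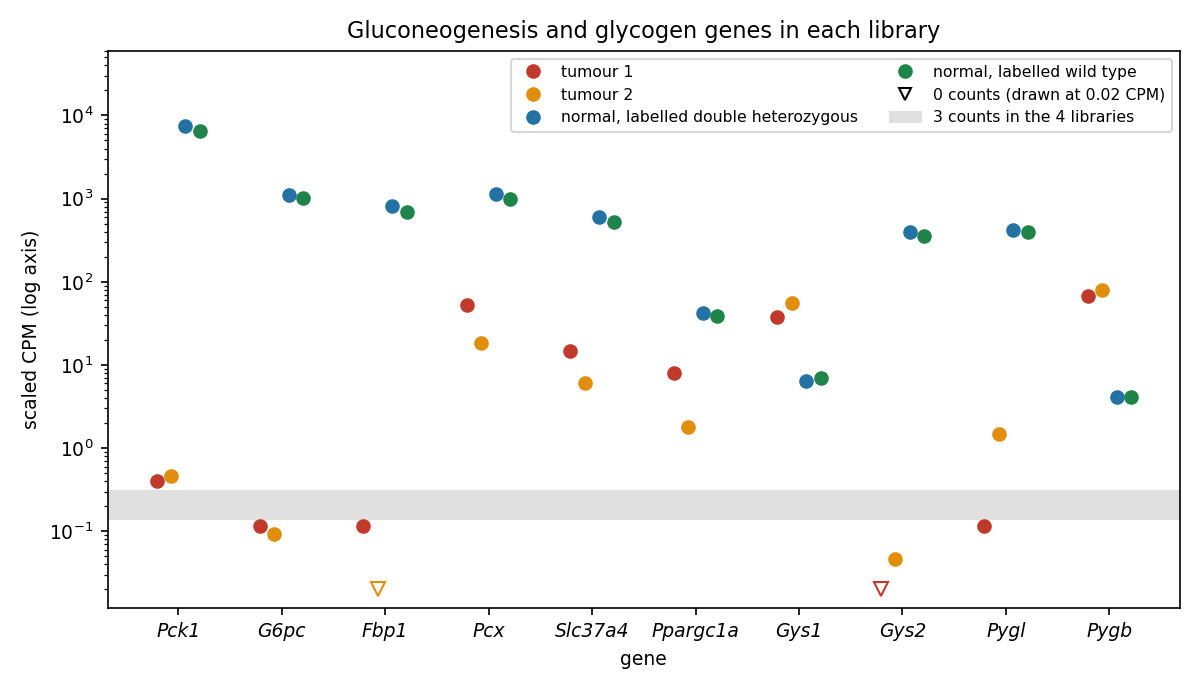
Scaled CPM (log axis) of the 10 genes in each of the 4 libraries, 1 point per library, with the level of 3 counts as a grey band and libraries at 0 counts as open triangles. Points of the tumours sit below those of normal liver for 8 genes and above them for Gys1 and Pygb.

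Pck1 encodes the cytosolic enzyme that commits oxaloacetate to glucose, and was the most abundant of the 10 genes per length in normal liver. Tumours 1 and 2 had 7 and 10 Pck1 counts, and normal liver 71765 (labelled double heterozygous) and 77880 (labelled wild type). On the scaled level this was 0.407 and 0.462 CPM against 7367 and 6531 CPM. Both tumours were low, and the 95% counting interval of the log2 ratio of tumour 2 to tumour 1 ran from -1.36 to 1.82. The log2 fold change of tumours against normal liver was -13.96 (SE 1.14, adjusted p = 0.0182). Pck1 is also expressed in kidney and fat. Kidney proximal tubule markers summed to 1.10 and 1.53 CPM in the tumours and 0.411 and 0.419 CPM in normal liver, and adipocyte markers to 0.407 and 0.139 CPM against 3.80 and 3.44 CPM. Of the kidney markers, Slc34a1, Slc5a2 and Slc22a8 were at 0 in both tumours, while Lrp2, with 19 and 32 counts against 2 and 3, made up nearly all of the sum there. Of the adipocyte markers, Adipoq and Lep were at 0 in both tumours.

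G6pc, the catalytic subunit that frees glucose, had 2 counts in each tumour and 10885 and 12129 in the normal tables labelled double heterozygous and wild type. A count of 2 carries an exact 95% Poisson interval of 0.242 to 7.22. Both tumours were under the level of 3 counts and far below normal liver, which stood at 1117 and 1017 CPM. The log2 fold change was -13.26 (SE 0.87, adjusted p = 0.0182). Relative to both normal tables, G6pc was 9143-fold lower in tumour 1 (95% counting interval 2531 to 75498) and 11485-fold lower in tumour 2 (3179 to 94838).

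Fbp1, the fructose bisphosphatase of liver and kidney, had 2 counts in tumour 1 and 0 in tumour 2, against 7912 and 8318 in normal liver. Normal liver stood at 812 and 698 CPM. In tumour 2 the level was at least 5400-fold lower when 0 is read as 3 counts, and in tumour 1 it was 6448-fold lower (95% counting interval 1785 to 53244). The log2 fold change was -13.63 (SE 1.35, adjusted p = 0.0215). It was -12.58 without tumour 2 and -16.59 without tumour 1, neither with a test, and the second, against 0 counts, depends on the prior count.

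The upstream sequences of Pck1, G6pc and Fbp1, genes that fell together, are shown beside that of Pck2, the mitochondrial paralogue that rose as described further on. They come from RefSeq (GRCm38.p6, not the mm9 build of the counts), run up to the transcription start, or to 16 bases (Fbp1) and 3 bases (Pck2) before it, leaving out transcribed bases. Pck1 lies at chr2:173152823-173153072 (+ strand), G6pc at chr11:101367466-101367715 (+), Fbp1 at chr13:62888299-62888532 (- strand) and Pck2 at chr14:55540016-55540262 (+). Capitals mark matches to 3 motifs, each searched on both strands. The half-site of the cyclic AMP response element (CRE) was read as TGACG. The TATA element was read as TATANA, where N is any base. The half-site of the hepatocyte factor HNF1 was read as GTTAAT.
Pck1: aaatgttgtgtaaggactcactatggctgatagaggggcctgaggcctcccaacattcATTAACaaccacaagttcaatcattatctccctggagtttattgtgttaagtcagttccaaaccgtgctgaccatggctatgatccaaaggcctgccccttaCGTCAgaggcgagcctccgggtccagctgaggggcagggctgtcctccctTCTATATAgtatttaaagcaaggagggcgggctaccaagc
G6pc: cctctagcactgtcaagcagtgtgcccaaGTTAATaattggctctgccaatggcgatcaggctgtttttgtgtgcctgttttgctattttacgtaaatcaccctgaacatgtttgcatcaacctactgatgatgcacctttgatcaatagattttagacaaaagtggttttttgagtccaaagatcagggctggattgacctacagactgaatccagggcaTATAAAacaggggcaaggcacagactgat
Fbp1: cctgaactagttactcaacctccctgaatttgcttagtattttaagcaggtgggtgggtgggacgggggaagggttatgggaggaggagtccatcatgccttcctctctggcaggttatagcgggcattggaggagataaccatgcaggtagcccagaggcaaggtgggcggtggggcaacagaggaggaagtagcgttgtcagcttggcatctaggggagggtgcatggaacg
Pck2: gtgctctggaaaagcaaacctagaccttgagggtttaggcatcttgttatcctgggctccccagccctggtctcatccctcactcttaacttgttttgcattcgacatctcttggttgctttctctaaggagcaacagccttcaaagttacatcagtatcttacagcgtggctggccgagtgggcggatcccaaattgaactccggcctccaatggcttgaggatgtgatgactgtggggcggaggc
The Pck1 sequence holds an HNF1 half-site, a CRE half-site and, near its end, overlapping matches to the TATA element on both strands. That of G6pc holds an HNF1 half-site and a TATA element, and those of Fbp1 and Pck2 hold none of the 3. Of 9 of the 10 genes with an entry, 5 had a CRE half-site within 250 bases, 3 a TATA element, 2 an HNF1 half-site and 0 the FOXO element TGTTTAC. Over 32841 upstream windows of that length, 17.8%, 22.6%, 6.43% and 3.17% held these motifs. A gene was counted if any of its windows matched, and the 9 genes had 12 windows, so their counts are not directly comparable with these shares per window. Pygb, which rose, is among the 5 genes with a CRE half-site. CpG dinucleotides numbered 5, 2 and 5 in the windows of Pck1, G6pc and Fbp1, and 6 in Pck2, at a median of 6 over all windows. CpG counts did not separate genes by direction, since Pygl, which fell, had 20 and Pygb, which rose, 17. A match describes letters only and is no evidence of binding.

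Slc37a4, the glucose 6-phosphate transporter that works with G6pc, was lower by less than these enzymes. It had 250 and 130 counts in tumours 1 and 2 and 5876 and 6206 in the normal tables, or 14.5 and 6.01 CPM against 603 and 520 CPM. Both tumours were low, tumour 2 the lower. The log2 fold change was -5.80 (SE 0.81, adjusted p = 0.0344), with -6.57 without tumour 1 and -5.30 without tumour 2, neither with a test.

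Pcx, which also refills the citric acid cycle in tissues that make no glucose, had 914 and 397 counts in the tumours and 11120 and 11895 in normal liver. That is 53.1 and 18.4 CPM against 1142 and 998 CPM. Both tumours lay below normal liver, but Pcx missed the threshold with a log2 fold change of -4.93 (SE 0.90, adjusted p = 0.0532). It passed in 5 of 8 alternatives, whose adjusted p ran from 7.79e-07 to 0.0692, so the call rests on the setting. The log2 value was -5.89 without tumour 1 and -4.36 without tumour 2, with no test. Ppargc1a, the fasting-induced coactivator, had 139 and 39 counts against 407 and 458, or 8.08 and 1.80 CPM against 41.8 and 38.4 CPM. Its tumour values differed 4.24-fold from each other, and the log2 fold change of -3.05 (SE 1.02, adjusted p = 0.153) did not pass the test. It passed with DESeq2 (adjusted p = 0.0426) and with the normal tables kept separate (0.0468), in a range of 0.0426 to 0.277 over 8 alternatives. The log2 value was -4.49 without tumour 1 and -2.34 without tumour 2, with no test.

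**Figure D2:**
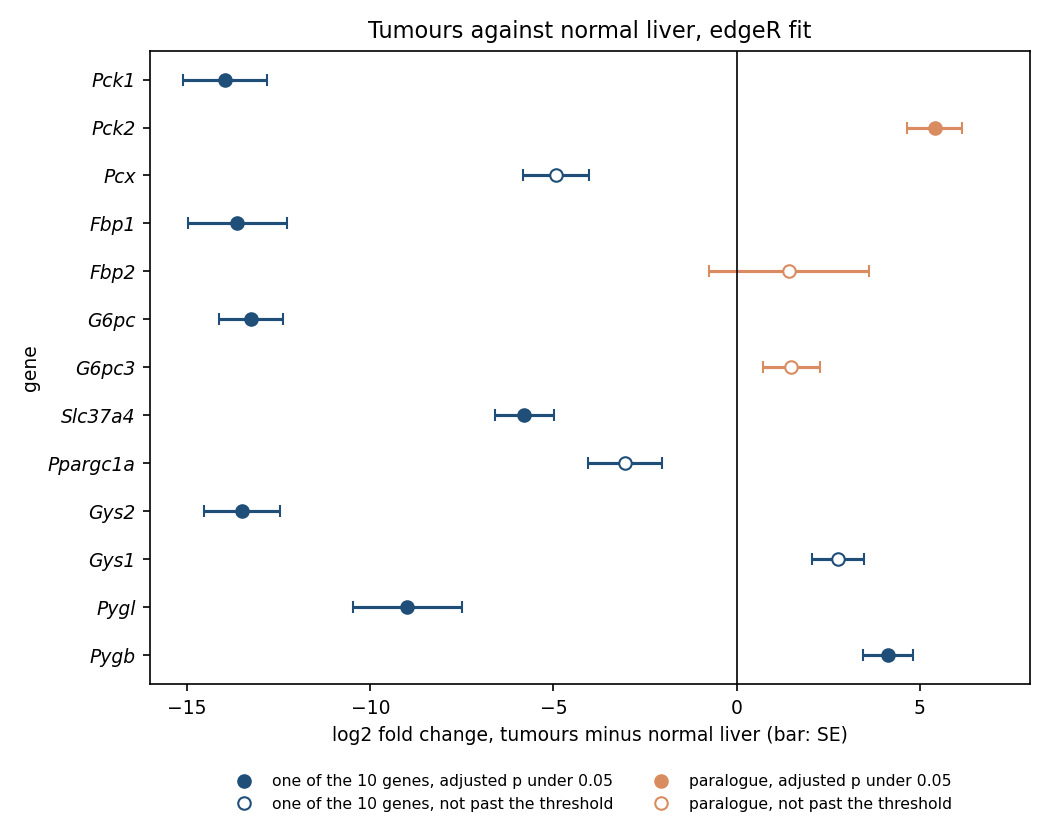
Log2 fold change of tumours minus normal liver (horizontal axis, points, with SE as bars) for the 10 genes and their tested paralogues Pck2, Fbp2 and G6pc3. Filled points passed an adjusted p of 0.05; Pck1, G6pc, Fbp1 and Gys2 lie below -13, and Pygb at 4.14 and Pck2 at 5.40 lie above 0.

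Gys2, the glycogen synthase of liver, had 0 counts in tumour 1 and 1 in tumour 2, against 3880 and 4251 in the normal tables. Normal liver stood at 398 and 357 CPM. With 0 read as 3 counts, Gys2 was at least 2153-fold lower in tumour 1. In tumour 2 it was 8115-fold lower, with a wide 95% counting interval of 1456 to 320573. The log2 fold change was -13.51 (SE 1.04, adjusted p = 0.0182), and -12.80 without tumour 1 and -15.38 without tumour 2, with no test. The last of these values, against 0 counts in tumour 1, depends on the prior count.

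Gys1, the synthase of muscle and most other tissues, went the other way in level. It had 647 and 1189 counts in tumours 1 and 2 and 62 and 83 in the normal tables, or 37.6 and 55.0 CPM against 6.36 and 6.96 CPM. Both tumours lay above normal liver, by 5.62-fold and 8.22-fold. The difference did not pass the test (log2 fold change 2.77, SE 0.70, adjusted p = 0.0954). Over the 8 alternatives the adjusted p ran from 0.00817 to 0.0968 and the log2 fold change from 2.67 to 4.14.

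Pygl, which releases glucose units from glycogen in liver, had 2 counts in tumour 1 and 32 in tumour 2, against 4071 and 4788 in normal liver. That is 0.116 and 1.48 CPM against 418 and 402 CPM. Both tumours were far below normal liver, and tumour 1 was the lower. The log2 fold change was -8.99 (SE 1.49, adjusted p = 0.0458). The value rests on both tumours, with -8.14 without tumour 1 and -11.71 without tumour 2 and no test for either. The call was lost without scaling beyond library size (log2 fold change -7.60, adjusted p = 0.0549, in a range of 1.91e-12 to 0.0549 over the alternatives).

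Pygb, the phosphorylase named for brain but expressed in many tissues, was the only one of the 10 genes that rose. It had 1148 and 1722 counts in tumours 1 and 2 and 40 and 49 in the normal tables. On the scaled level the tumours stood at 66.7 and 79.6 CPM (73.2 ± 9.15, SD, n = 2) and the normal tables at 4.11 and 4.11 CPM. The tumours lay close together and far above normal liver, 17.6-fold by the fit (log2 fold change 4.14, SE 0.69, adjusted p = 0.0462). Of the brain markers, Gfap had 0 counts in both tumours and Snap25 0 and 2, while Mbp had 1877 and 812 counts against 10 in each normal table and made up nearly all of that list's sum of 109 and 37.6 CPM. The muscle phosphorylase gene Pygm had 1 and 4 counts against 8 and 12, too few to be tested. The 5 muscle markers summed to 0.755 and 0.647 CPM in the tumours against 0.205 and 0.335 CPM; Ckm, Myh4 and Tnnt3 were at 0 in all libraries, and Mylpf had 12 and 11 counts against 1 and 2.

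Paralogues of the gluconeogenic enzymes outside the 10 genes were read in the same way. Pck2, the mitochondrial phosphoenolpyruvate carboxykinase, had 1713 and 1667 counts in tumours 1 and 2 and 21 and 24 in the normal tables, or 99.5 and 77.1 CPM against 2.16 and 2.01 CPM. It rose 42.3-fold (log2 fold change 5.40, SE 0.75, adjusted p = 0.0344). G6pc3, the widely expressed glucose-6-phosphatase, had 434 and 307 counts against 68 and 80. Both tumours were above normal liver, at 25.2 and 14.2 CPM against 6.98 and 6.71 CPM, but the difference did not pass the test (log2 fold change 1.49, SE 0.77, adjusted p = 0.284). Fbp2, the muscle fructose bisphosphatase, had 84 and 5 counts in the tumours and 8 and 11 in the normal tables. Its groups overlapped, with tumour 1 above and tumour 2 below normal liver (log2 fold change 1.42, SE 2.19, adjusted p = 0.699). The fold change was -1.99 without tumour 1 and 2.36 without tumour 2, with no test. G6pc2, of pancreatic islets, had 0 counts in all 4 libraries. Fbp1 and Fbp2 each carry the other's symbol as an older synonym in RefSeq, so the values follow the symbols as the tables give them.

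Dividing counts by exon length allowed the genes of a family to be compared within a library. In normal liver, Pck1 made up 99.98% of the length-divided counts of its pair in both tables, and in the tumours 0.705% and 1.03%. The share of G6pc was 99.1% and 99.0% in the normal tables labelled double heterozygous and wild type and 0.306% and 0.432% in tumours 1 and 2. For Fbp1 it was 99.9% in both normal tables and 2.13% in tumour 1; in tumour 2 it was 0 of 5 counts, too few to read a share. Gys2 held 98.9% and 98.6% of glycogen synthase in normal liver. In tumour 1 it had 0 of 647 counts, for which an exact binomial 95% interval reaches up to 0.569%, and in tumour 2 it held 0.116%. Pygl held 98.9% and 98.8% of phosphorylase in normal liver, and 0.203% and 2.12% in the tumours. The gene that held most of a family's counts thus differed between both tumours and normal liver in each family but fructose bisphosphatase, where only tumour 1 had enough counts to tell. This is a description without a test.

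**Figure D3:**
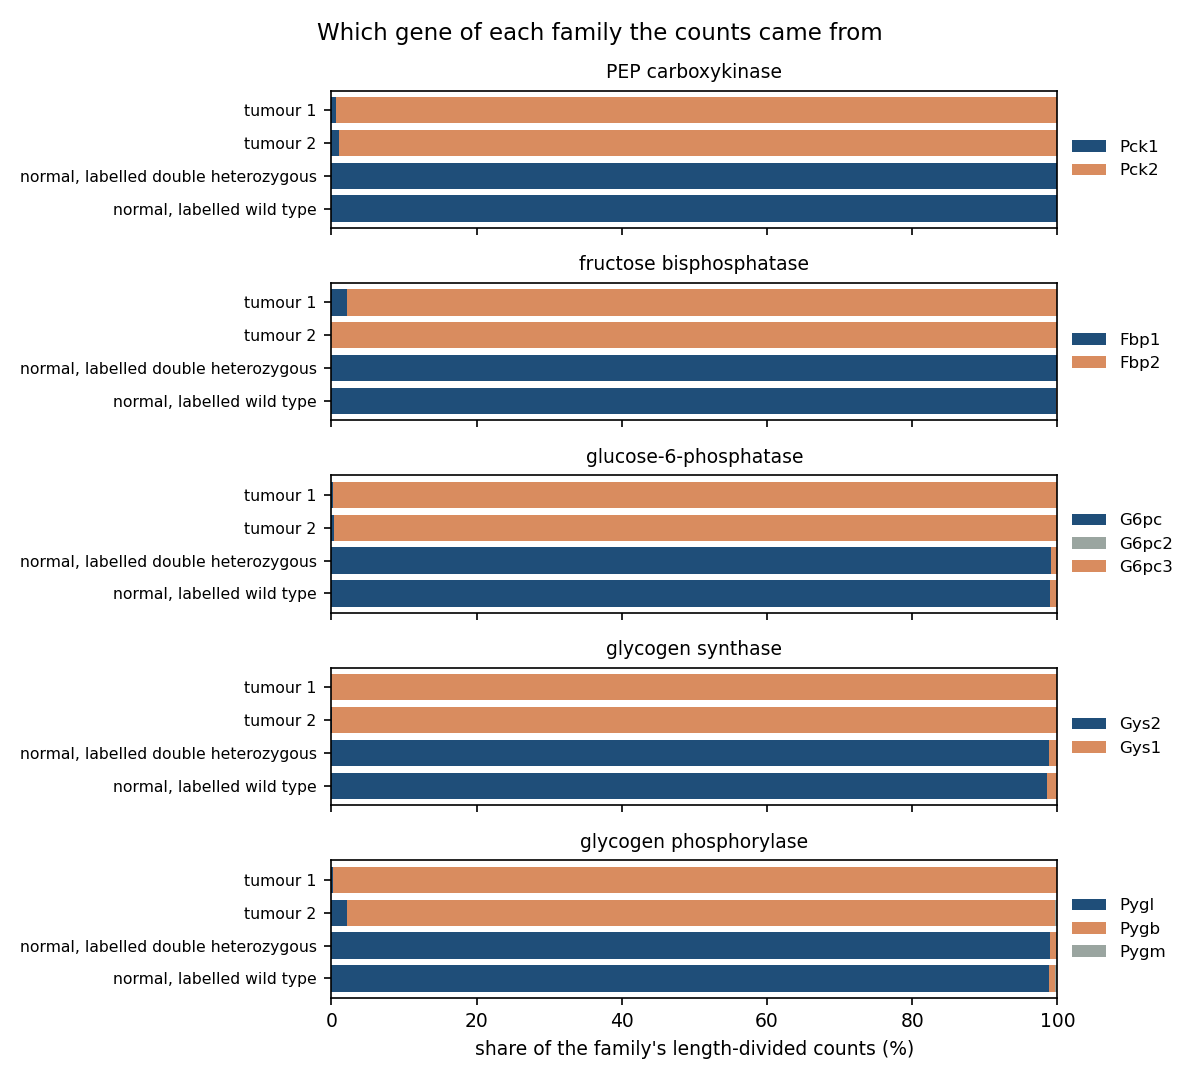
Share (%) of each gene in the length-divided counts of its enzyme family (horizontal bars, 1 per library, the genes of a family adding up to 100%). The liver gene takes 98.6% or more in the normal tables and 2.13% or less in the tumours; the fructose bisphosphatase bar of tumour 2 rests on 5 counts.

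The counterparts did not bring the families to the level of normal liver. Summed per kilobase of exon, phosphoenolpyruvate carboxykinase stood at 21.7 and 16.8 CPM per kb in tumours 1 and 2 against 2769 and 2455 CPM per kb, which is 121-fold and 155-fold below the mean of the normal tables. Glucose-6-phosphatase was 28.3-fold and 50.3-fold lower, at 15.7 and 8.88 against 467 and 426 CPM per kb. Fructose bisphosphatase was the lowest family, at 3.68 and 0.171 CPM per kb against 550 and 472. The glycogen families lay closer to normal liver. Glycogen synthase was at 10.2 and 15.0 CPM per kb against 152 and 136, or 14.1-fold and 9.61-fold lower. Phosphorylase was at 17.1 and 20.9 CPM per kb against 126 and 122, or 7.24-fold and 5.94-fold lower.

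**Figure D4:**
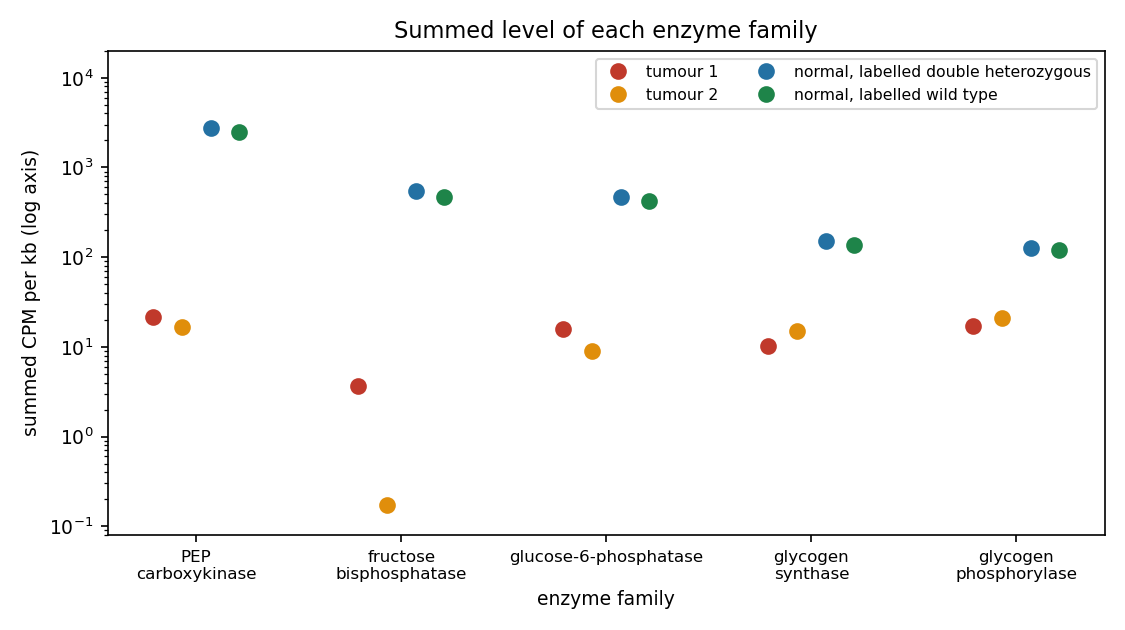
Summed scaled CPM per kb of exon (log axis) of the genes of each enzyme family, 1 point per library. All tumour points lie below the normal points, from 5.94-fold for phosphorylase in tumour 2 to 2993-fold for fructose bisphosphatase in tumour 2, which rests on 5 counts.

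The order of the 10 genes by level per length changed in part. In the mean of the normal tables it ran from Pck1 (2612 CPM per kb) over Fbp1 (510), G6pc (442), Pcx (252), Slc37a4 (213), Gys2 (142) and Pygl (123) down to Ppargc1a (6.20), Gys1 (1.81) and Pygb (1.05). No neighbours in this order overlapped between the normal tables, which share counts. In the tumours Pygb led, with 17.1 and 20.4 CPM per kb. Next came Pcx (12.5 CPM per kb) and Gys1 (10.2) in tumour 1, and Gys1 (15.0) and Pcx (4.33) in tumour 2, so that the ranges of Pcx and Gys1 overlapped. Slc37a4 followed at 5.50 and 2.28 CPM per kb, then Ppargc1a at 1.25 and 0.279 in tumour 1 and in tumour 2, where Pygl (0.443) stood above it. Pck1, G6pc, Fbp1 and Gys2 were at 0.174 CPM per kb or less in both tumours, and Pygl was at 0.0348 in tumour 1. Pcx stood above Slc37a4, and Slc37a4 above Ppargc1a, in every library.

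The tumours were compared with each other as single libraries, without a test. Among the 10 genes, 4 differed over 2-fold between them at a prior count of 2, beside 33.1% of all genes tested. At a prior count of 0.5, Fbp1 (2 and 0 counts) and Gys2 (0 and 1) also did, with log2 ratios of tumour 2 to tumour 1 of -2.17 and 1.26. Pcx (2.88-fold), Slc37a4 (2.39-fold) and Ppargc1a (4.24-fold) were higher in tumour 1, and Pygl (6.49-fold, with a prior count of 2) was higher in tumour 2. Gys1 was 1.46-fold and Pygb 1.19-fold higher in tumour 2. The normal tables differed little for these genes: the log2 ratio of the table labelled double heterozygous to that labelled wild type ran from -0.13 for Gys1 to 0.22 for Fbp1, around a median of 0.08 over all genes. Because these tables share counts, this says nothing about an effect of genotype.

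Other genes of glucose production were read from lists of enzymes and transporters that feed or share its steps and of its regulators. Among 22 feeder and shared-step genes tested, 7 fell and 1, Pck2, rose, at a list median of -2.34 on the log2 scale. Of all genes tested, 5.19% fell and 2.23% rose. Before adjustment 14 genes of this list were lower and 1 higher at a p under 0.05, with the same numbers by DESeq2. The shares over all genes were 15.5% and 12.5% before adjustment and 12% and 11.5% by DESeq2. Of the 7, 5 are described here. Sds, which makes pyruvate from serine and has shared sequence with other genes (24.6% of its 31-base words), fell to 0 and 1 counts (-13.12, SE 1.02). The membrane carriers of glucose, Slc2a2 (-9.94, SE 0.93), and of glycerol, Aqp9 (-6.41, SE 1.10), fell as well. So did the glycerol phosphate dehydrogenase gene Gpd1 (-4.72, SE 0.67, with 11% shared 31-base words) and Pfkfb1 (-5.37, SE 0.65), whose product sets fructose 2,6-bisphosphate in liver.

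Among 25 regulators 4 fell and 0 rose (edgeR), beside 5.19% and 2.23% of all genes tested, with a list median of -2.05. Before adjustment 14 had a p under 0.05 with a lower value and 0 with a higher one, and by DESeq2 12 were lower and 0 higher. Over all genes tested, 15.5% were lower and 12.5% higher at such a p, and 12% and 11.5% by DESeq2. Gcgr, the glucagon receptor, had 0 and 1 counts in the tumours against 4448 and 5080 (log2 fold change -13.74, SE 1.05, adjusted p = 0.0182). Ppara, a nuclear receptor of fasting, stood at -8.84 (SE 1.29, adjusted p = 0.0366) and the liver factor Onecut1 at -8.24 (SE 0.84, 53.0% shared 31-base words). Igfbp1, an insulin-repressed secreted protein gene rather than a regulator of the enzymes, fell to 0 and 1 counts (-13.56, SE 1.04).

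The lists of other glycogen genes leave out Gys1, Gys2, Pygl and Pygb, described above. Of 19 further synthesis genes tested, 2 fell and 0 rose (edgeR), beside 5.19% and 2.23% of all genes tested, at a median of -1.89. Before adjustment 5 lower and 3 higher genes had a p under 0.05, and by DESeq2 5 were lower and 1 higher, to be read against the same shares over all genes. Both that fell encode subunits that target protein phosphatase 1 to glycogen. Ppp1r3b, the main one of liver, stood at 8.54 and 15.9 CPM against 373 and 315 CPM (log2 fold change -4.83, SE 0.66, adjusted p = 0.0335). Ppp1r3g had 0 counts in both tumours against 43.6 CPM and was at least 279-fold lower (adjusted p = 0.0292). Of 9 further breakdown genes tested 0 passed in either direction (edgeR), beside 5.19% and 2.23% of all genes tested, at a median of -0.44. Before adjustment 1 lower gene and 0 higher genes had a p under 0.05, with the same numbers by DESeq2. Over all genes the shares lower and higher were 15.5% and 12.5% before adjustment and 12% and 11.5% by DESeq2.

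In these lists the falls of Gpd1, Aqp9, Pfkfb1 and Ppp1r3b missed the threshold without scaling (adjusted p = 0.0533, 0.0587, 0.0512 and 0.0534). A single tumour moved several log2 values, given here first without tumour 1 and then without tumour 2, with no test: Aqp9 -7.81 and -5.71, Slc2a2 -10.68 and -9.43, Ppara -10.53 and -8.07, and Onecut1 -7.74 and -9.10. In the same order Sds stood at -12.41 and -15.00, Gcgr at -13.02 and -15.61, and Igfbp1 at -12.85 and -15.43. For Sds, Gcgr and Igfbp1 the second value, against 0 counts in tumour 1, depends on the prior count.

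**Figure D5:**
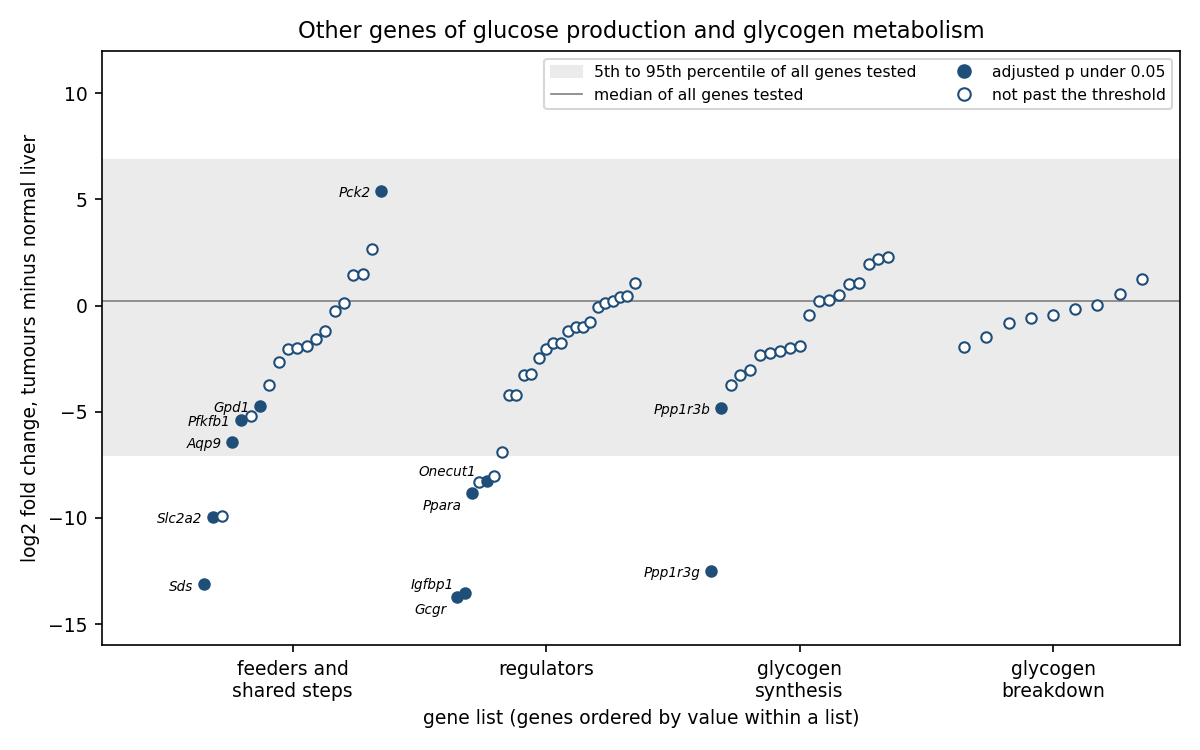
Log2 fold change of tumours minus normal liver (vertical axis) for tested genes of 4 lists (all but 2 feeders), ordered by value within each list, with the 5th to 95th percentile of all genes as a band and their median as a line. Filled, named points passed an adjusted p of 0.05; Ppp1r3g had 0 counts in both tumours, so its plotted value depends on the prior count.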

How the data were processed

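Gene expression was measured by RNA sequencing of TRIZOL-extracted total RNA after TruSeq library preparation (Illumina), as the labels' protocols say. The authors deposited raw read counts per gene symbol, 1 table per library. Per the submitters' processing notes, FastQC, Trimmomatic, TopHat2 2.0.10, HTSeq and DESeq2 were the tools named and mm9 the build, with no role or order stated. Settings and strand use were not given in these sources, so overlapping antisense genes cannot be told apart. The 5 lines per table that name no gene were left out. Their shares were 13.6 to 31.5% outside genes, 30.7 to 51.5% not unique and at most 0.107% ambiguous.

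The main test was edgeR 4.0.16 in R 4.3.3 (TMM, filterByExpr with a minimum count of 10, glmQLFit, glmQLFTest, Benjamini-Hochberg over all genes), with tumours 1 and 2 against the rounded mean of the normal tables. It leaves 1 residual degree of freedom, so a gene's own spread comes from the tumours and the lone normal library is taken to vary as they do. That spread was moderated toward the trend over all genes, at a median of 3.32 prior degrees of freedom. P-values thus rest on a moderated spread between these samples, which may be technical. SE was taken as the size of the log2 fold change over the root of the F statistic. Displayed CPM were scaled over all 4 libraries, which differs from the scaling of the test by 0.03 on the log2 scale. Single-library ratios used a prior count of 2. Intervals and the floor of 3 counts cover counting error only.

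Exon lengths (union of basic protein-coding transcripts) and shared 31-base words came from GENCODE, and upstream windows of 250 bases from RefSeq. Over 10% shared words is called shared sequence, which 0 of the 10 genes had. DESeq2 1.42.0 was an alternative. The 10 genes and all lists were chosen with earlier results of these data known. Named were all 10 genes, the paralogues Pck2, Fbp2, G6pc2, G6pc3 and Pygm, and list genes past the threshold (at most 8 per list), except 2 feeders that are counted but not reported by name here.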

Additional observations from a re-analysis of the deposited data

How the results depend on the processing

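The direction of the 10 genes held under all alternatives run: other scalings, no filter on low counts, DESeq2, both normal tables as separate libraries, and each normal table or tumour left out. Of the 7 called genes, 6 kept their call in all 8 tested alternatives, Pygl being the exception. The number called higher went from 1 to 2 with DESeq2 and to 2 with separate normal tables, through Gys1, and the number called lower lay between 5 and 8. Leaving out a normal table gave 6 to 7 lower and 1 higher. Scaling moved all genes by a median of 0.23 (upper quartile) and 1.37 (none) on the log2 scale.

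Over all genes, 751 lower and 322 higher became 472 and 635 without scaling, 1383 and 903 without the filter, 1743 and 1666 with DESeq2, and 3157 and 3058 with the normal tables separate; the cause was not tested. In the same order, falls in the feeder list were 4, 10, 14 and 15 instead of 7. They were 4, 12, 12 and 16 instead of 4 in the regulator list, and 1, 3, 5 and 7 instead of 2 in the glycogen synthesis list. These and the following list counts are to be read against the totals over all genes, which moved too. Genes tested numbered 18506 without the filter and 13511 with the normal tables separate, instead of 14468. Where the normal libraries were kept separate, 3 feeders, 1 regulator, 3 synthesis genes and 1 breakdown gene rose and 1 breakdown gene fell; with DESeq2 1 synthesis gene rose and 1 breakdown gene fell. Without division by length the Gys2 share in the normal tables was 98.4% and 98.1%.

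No paired analysis was possible because the labels link no tumour to a normal liver of the same mouse. Without a tumour no residual degree of freedom is left, so those values have no test. At this depth counts of 0 to 3 cannot rank Fbp1, G6pc and Gys2 in the tumours.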
